A study of Mus musculus with 2 samples.

Results

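Cells that meet reactive oxygen dispose of it in steps. Superoxide dismutases turn superoxide into hydrogen peroxide, and catalase, glutathione peroxidases and peroxiredoxins then reduce the peroxide. Peroxiredoxins are recharged by thioredoxin, and glutathione peroxidases by glutathione, which the glutathione transferases also attach to reactive compounds. Tendon cells lie in a matrix that carries mechanical load, and reactive oxygen is among the signals that loaded fibroblasts are known to produce.

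The genes described here encode 10 such enzymes and proteins: the superoxide dismutases Sod1, Sod2 and Sod3, the peroxide-reducing enzymes Cat, Gpx1, Prdx1, Prdx2 and Prdx6, thioredoxin (Txn1) and the glutathione transferase Gstm1. They were found by gene symbol, using the array probes that carry exactly 1 symbol in the platform annotation. Of the 10 genes, 9 were measured, out of 10791 named genes on the arrays, and they had 39 probes in all, every probe with a value on both arrays. Prdx6 was not analysed here.

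The data are 2 two-colour spotted arrays of mouse flexor tendon cells. On the 12 h array, RNA of tenocytes, the fibroblast-like cells of tendon, sheared at 50 rpm was labelled with Cy5, and RNA of control tenocytes of the same time with Cy3. On the 6 h array, RNA of sheared cells was labelled with Cy5 and RNA of control cells with Cy3; both are labelled as pooled, and the labels give no shear speed for it. Strain, age and number of animals are not given in the labels, and the dyes were not swapped.

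Values are log2 ratios, likely sheared over control, after each array was centred on its median. The base of 2 is assumed, and the direction rests on the dyes in the labels, so that every "higher" below would read "lower" if the ratio ran the other way. A gene's value is the median of its probes. With 1 array per time no difference could be tested, and precision is limited by that number. Error is given as the SD among the probes of a gene (probe SD), which covers clones and spots but not cultures. Its pooled value was 0.855 at 12 h (5579 genes) and 0.738 at 6 h (5396 genes). Among spots listed under the same sequence entry, the pooled SD was larger, 0.991 at 12 h (611 entries) and 0.892 at 6 h (554 entries). A small probe SD of a single gene therefore does not set the precision of its value. Before centring, the median spot read -0.479 at 12 h and -0.323 at 6 h. A table of ratios shows no level of any transcript, so the tendon label could not be checked against its markers, and fewer cells and less RNA per cell cannot be told apart.

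The measured genes lay on the higher side in sheared cells on both arrays, with Sod3 near 0 at 6 h. At 12 h their median was 1.55 (2.92-fold), against -0.14 for all 10731 named genes, and at 6 h it was 0.595 (1.51-fold), against -0.11 for all 10346 named genes. At least 1.5-fold higher were 9 of 9 at 12 h, where 24.4% of all genes were, and 5 of 9 at 6 h (Txn1, Prdx1, Sod1, Gpx1 and Sod2), where 18.2% of all genes were. At least 2-fold higher were 7 at 12 h, all but Cat and Sod3, against 14.5% of all genes, and 3 at 6 h, Txn1, Prdx1 and Sod1, against 6.2% of all genes. None was at least 1.5-fold lower on either array, against 33.1% of all genes at 12 h and 31.3% at 6 h. Of the 39 probes, 38 read above 0 at 12 h and 36 at 6 h, while 50.0% and 51.2% of all probes with a single symbol did. Among genes with 2 or more probes, the background of at least 1.5-fold higher values was 29.4% at 12 h and 20.7% at 6 h. Without centring the medians of the redox enzymes were 1.07 at 12 h and 0.27 at 6 h, and 6 genes at 12 h and 3 at 6 h reached 1.5-fold, against 13.4% and 8.35% of all genes.

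**Figure D1:**
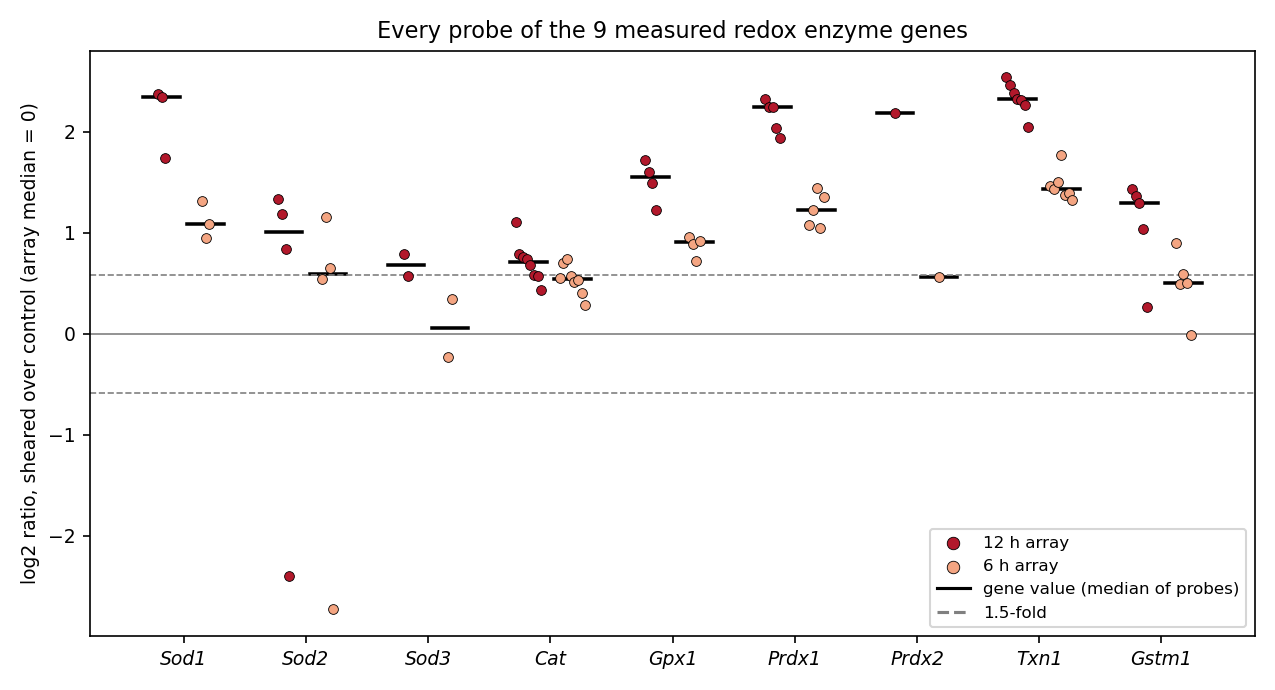
Log2 ratio of sheared over control (vertical axis, array median at 0) for each probe of the 9 measured genes, with the 12 h array on the left and the 6 h array on the right of each gene. Black bars are gene values (medians of probes) and dashed lines mark 1.5-fold. Txn1, Prdx1 and Sod1 stand highest at both times, and a single Sod2 probe lies at -2.403 at 12 h and -2.727 at 6 h.

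The superoxide dismutases differed from each other. Sod1, the copper and zinc enzyme of the cytosol, read 2.37, 2.34 and 1.74 on its 3 probes at 12 h, and 1.32, 0.95 and 1.09 on the same probes at 6 h. Its gene value was 2.34 at 12 h (5.08-fold, probe SD 0.36) and 1.09 at 6 h (2.13-fold, probe SD 0.19), and only 1.01% of named genes at 12 h and 4.76% at 6 h read higher. All 3 probes lay on the higher side at both times.

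Sod2, the manganese enzyme of mitochondria, had probes that disagreed. Its 4 probes read 1.33, 1.19, 0.84 and -2.403 at 12 h, and 0.54, 1.16, 0.65 and -2.727 at 6 h. The gene value was 1.01 at 12 h (probe SD 1.77) and 0.595 at 6 h (probe SD 1.78), the latter just past the 1.5-fold line of 0.585. With the mean of the probes the values were 0.24 at 12 h and -0.0945 at 6 h, so the sign at 6 h turned. Without the probe below 0, an alternative picked afterwards, they were 1.19 at 12 h and 0.65 at 6 h. What the discordant probe hybridises to was not tested.

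Sod3, the dismutase secreted into the extracellular matrix, had the smallest values of the group. Its 2 probes read 0.79 and 0.58 at 12 h, and -0.23 and 0.35 at 6 h. The gene value was 0.68 at 12 h (1.60-fold, probe SD 0.15) and 0.06 at 6 h (probe SD 0.41), where the probes lay on opposite sides of 0 and the gene value was -0.26 without centring and -0.03 with print blocks of the array centred. At 6 h, 42.0% of named genes read higher than Sod3.

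Among the peroxide-reducing enzymes Prdx1 read highest at both times. Prdx1, an abundant peroxiredoxin of the cytosol, read 2.33, 2.25, 2.25, 2.04 and 1.94 on its 5 probes at 12 h, and 1.08, 1.22, 1.45, 1.05 and 1.35 at 6 h. The gene values were 2.25 at 12 h (4.74-fold, probe SD 0.16) and 1.22 at 6 h (2.33-fold, probe SD 0.17). The Prdx1 probes of the 12 h array lay above all those of the 6 h array. Prdx2, a related cytosolic peroxiredoxin, rested on 1 probe, which read 2.19 at 12 h (4.56-fold) and 0.56 at 6 h (1.48-fold). It had the largest gap between the times of the 9 genes, and a value on 1 probe has no check of its own.

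Gpx1, the selenium-containing glutathione peroxidase of the cytosol and mitochondria, read 1.72, 1.60, 1.49 and 1.22 on its 4 probes at 12 h, and 0.96, 0.89, 0.72 and 0.92 at 6 h. Its gene values were 1.55 at 12 h (2.92-fold, probe SD 0.21) and 0.90 at 6 h (1.87-fold, probe SD 0.10). Catalase, the peroxide-splitting enzyme of peroxisomes, had the most probes and small values. The 8 Cat probes ran between 0.43 and 1.10 at 12 h with a median of 0.71 (1.64-fold, probe SD 0.20), and between 0.29 and 0.74 at 6 h with a median of 0.54 (1.45-fold, probe SD 0.15). All 8 were above 0 on both arrays. The probes that read 1.10 and 0.79 at 12 h share a sequence entry, so they are separate spots rather than separate sequences. The highest Cat probe at 12 h, 1.10, lay below the lowest Gpx1 probe, 1.22, so the probe ranges of these genes did not overlap there.

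Thioredoxin had the highest value of the group at 6 h and lay next to Sod1 at 12 h. The 7 Txn1 probes ran between 2.05 and 2.54 at 12 h with a median of 2.33 (5.02-fold, probe SD 0.16), and between 1.33 and 1.77 at 6 h with a median of 1.43 (2.70-fold, probe SD 0.15). Only 1.09% of named genes at 12 h and 1.82% at 6 h read higher than Txn1. Its lowest 12 h probe lay above the highest Gpx1 probe of that array (1.72).

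Gstm1, a mu-class glutathione transferase, read 1.43, 1.36, 1.30, 1.04 and 0.26 on its 5 probes at 12 h, and 0.89, 0.49, 0.59, 0.50 and -0.01 at 6 h. The gene values were 1.30 at 12 h (2.46-fold, probe SD 0.48) and 0.50 at 6 h (1.41-fold, probe SD 0.32). The same probe was lowest on both arrays. The mu-class genes are similar in sequence and can share signal on spotted clones. Gstm2 stood at 1.49 at 12 h (probe SD 2.15, 5 probes) and 0.55 at 6 h (probe SD 0.81). Gstm5 stood at 1.34 at 12 h and 0.82 at 6 h, and Gstm6 at 1.36 and 0.53. Gstm7 differed, at 0.04 at 12 h and -0.69 at 6 h on 1 probe. Gstm2, Gstm6 and Gstm7 were picked after their values were known.

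In order of value at 12 h, Sod1 (2.34), Txn1 (2.33), Prdx1 (2.25) and Prdx2 (2.19) came first, and no probe of these 4 genes read lower than 1.74. Gpx1 (1.55), whose highest probe read 1.72, Gstm1 (1.30), Sod2 (1.01), Cat (0.71) and Sod3 (0.68) followed. Neighbours in this order had overlapping probe ranges except Prdx2 and Gpx1. At 6 h the order was Txn1 (1.43), Prdx1 (1.22), Sod1 (1.09), Gpx1 (0.90), Sod2 (0.595), Prdx2 (0.56), Cat (0.54), Gstm1 (0.50) and Sod3 (0.06). Each gene's probe range overlapped that of its neighbour there.

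The promoters of the 3 genes that read highest at both times, Prdx1, Txn1 and Sod1, are shown because these genes read high together. Each window holds 250 bases before and 50 bases after the gene's start, from RefSeq on GRCm38.p6, and is written along the gene's strand. The windows are chr4:116685349-116685648 (plus strand) for Prdx1, chr4:57956362-57956661 (minus strand) for Txn1 and chr16:90220512-90220811 (plus strand) for Sod1. Capitals mark matches on either strand to TGACNNNGC and to TATAAA. TGACNNNGC is the core of the antioxidant response element, the element bound by the transcription factor NRF2. TATAAA holds the letters of the TATA box.
Prdx1: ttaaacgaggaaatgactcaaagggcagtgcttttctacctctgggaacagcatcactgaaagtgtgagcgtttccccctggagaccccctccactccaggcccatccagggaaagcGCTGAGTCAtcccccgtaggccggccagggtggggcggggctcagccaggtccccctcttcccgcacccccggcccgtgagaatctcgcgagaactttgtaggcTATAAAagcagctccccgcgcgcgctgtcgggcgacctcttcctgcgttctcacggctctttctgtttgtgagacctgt
Txn1: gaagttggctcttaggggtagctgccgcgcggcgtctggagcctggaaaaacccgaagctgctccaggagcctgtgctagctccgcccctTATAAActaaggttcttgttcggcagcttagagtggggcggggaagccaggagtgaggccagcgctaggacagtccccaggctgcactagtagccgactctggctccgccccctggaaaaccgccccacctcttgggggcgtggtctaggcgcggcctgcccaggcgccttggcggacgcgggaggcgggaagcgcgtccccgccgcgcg
Sod1: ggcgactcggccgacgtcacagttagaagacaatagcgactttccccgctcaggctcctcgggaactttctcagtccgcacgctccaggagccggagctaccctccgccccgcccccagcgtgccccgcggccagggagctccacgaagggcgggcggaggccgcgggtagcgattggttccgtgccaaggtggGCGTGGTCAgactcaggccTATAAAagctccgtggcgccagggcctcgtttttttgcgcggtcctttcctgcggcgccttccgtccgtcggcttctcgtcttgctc

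The antioxidant response core matched on the opposite strand in Prdx1, as GCTGAGTCA with its first base at -133 from the start, and in Sod1, as GCGTGGTCA at -56. TATAAA began at -29 in Prdx1, -37 in Sod1 and -160 in Txn1. Promoters were matched for 8 of the 10 genes, all but Sod3 and Prdx6, in 9 windows. The antioxidant response core was in 2 of these 9 windows, against 12.4% of the 32851 windows in the table. TATAAA was in 4, those above and 1 of the 2 windows of Gstm1, against 13.6%. The GC box GGGCGG, searched on both strands, was in 7 windows, against 35.7%. The TATA and GC boxes were added to the search after the values were known. A match describes these letters only and is no evidence of binding, nor that the TATAAA at -160 in Txn1 acts as a TATA box.

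All 9 genes read higher at 12 h than at 6 h, as did 56.6% of the 10286 genes on both arrays. The median gap was 0.80, against 0.12 for all genes, and it ran between 0.17 for Cat and 1.63 for Prdx2. Larger median gaps were found in groups described below. They were 1.09 for 60 cytosolic ribosomal protein genes, 0.94 for other glutathione peroxidases and 0.92 for the respiratory chain. The other related lists had smaller gaps, such as 0.54 for other transferases, 0.325 for the thioredoxin system and -0.33 for glutathione supply. For Sod1 the gap was 1.25, for Prdx1 1.02, for Txn1 0.90, for Gstm1 0.80, for Gpx1 0.64, for Sod3 0.62 and for Sod2 0.42. Probe by probe, 39 of 39 probes read higher at 12 h, against 57.0% of all probes with a single symbol. Each time has its own control RNA, and time, pooling as labelled and array cannot be told apart.

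The 12 h array was also wider, with a median absolute deviation of 0.799, against 0.635 at 6 h. After both arrays were scaled to the same deviation, all 9 genes and 35 of the 39 probes still read higher at 12 h. Of all genes, 57.7% did. The gaps of the 9 genes then ran between 0.03 for Cat and 1.32 for Prdx2. Without centring, 9 genes and 34 probes read higher at 12 h, with gaps between 0.02 and 1.47. Of all genes, 47.8% did, with a median gap of -0.04. With print blocks centred, 9 genes and 36 probes read higher at 12 h, against 57.6% of all genes, with gaps between 0.09 and 1.65.

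**Figure D2:**
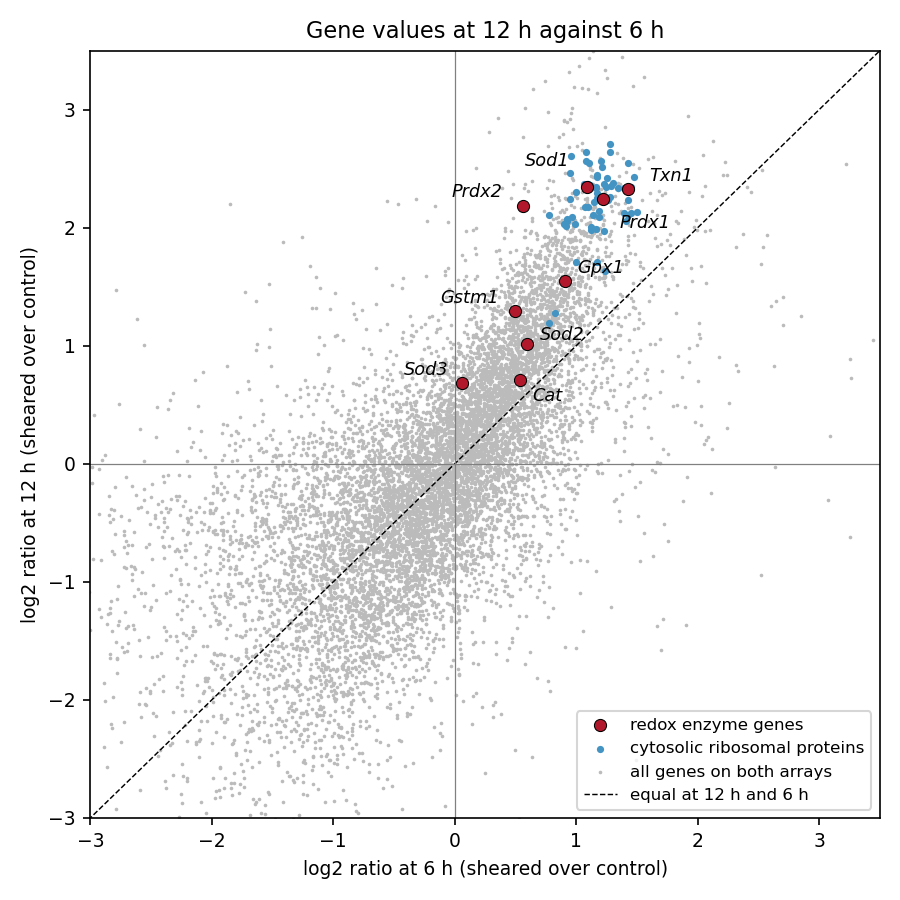
Log2 ratio of each gene at 12 h (vertical axis) against 6 h (horizontal axis), with the 9 redox enzyme genes in red, 60 cytosolic ribosomal protein genes in blue and the other genes on both arrays in grey; 254 genes lie outside the axes. All 9 redox genes lie above the dashed line of equal values, Sod1, Prdx1 and Txn1 within the cloud of ribosomal protein genes and Cat nearest the line.

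Other gene groups read as high or higher on these arrays. Each of 60 cytosolic ribosomal protein genes reached 1.5-fold at both times, with medians of 2.25 at 12 h and 1.17 at 6 h. Of 57 respiratory chain genes, 53 were at 12 h and 50 at 6 h, with medians of 1.89 and 0.94; without centring 47 were at 12 h and 32 at 6 h. The medians of the redox enzymes, 1.55 at 12 h and 0.595 at 6 h, lay below those of both groups, while Sod1 and Txn1 at 12 h and Txn1 and Prdx1 at 6 h lay above the ribosomal median. Whatever these groups share with the redox enzymes was not tested. Erythroid markers were followed because red cells are rich in Sod1, Cat, Prdx2 and Gpx1. Their median was -0.45 over 6 genes at 12 h and -0.51 at 6 h. The 17 probes of Hba-a1, alpha globin, had medians of -0.40 at 12 h (probe SD 0.95) and -0.51 at 6 h (probe SD 0.91). Of these markers, Epb42, picked after its values were known, was the only gene at least 1.5-fold higher at 12 h (0.65, probe SD 1.67, 2 probes). None was higher at 6 h. At least 1.5-fold lower were 1 at 12 h and 2 at 6 h. The shares of all genes were 24.4% higher and 33.1% lower at 12 h, and 18.2% and 31.3% at 6 h. Without centring no erythroid marker was higher and 4 were lower at each time, with medians of -0.93 at 12 h and -0.835 at 6 h. Of all genes, 13.4% at 12 h and 8.35% at 6 h were then higher, and the share lower was not counted.

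The counts of related genes below stand beside shares over all genes of 24.4% higher and 33.1% lower at 12 h, and 18.2% higher and 31.3% lower at 6 h; without centring the shares higher were 13.4% and 8.35%. The remaining peroxide-reducing enzymes were mostly on the higher side. Of 4 measured peroxiredoxins and dismutase partners, 3 were at least 1.5-fold higher at both times and 1 was lower at 12 h. Without centring, 1 was higher at 12 h and 0 at 6 h, and the 12 h median became 0.49 in place of 0.96. The higher genes were Prdx4, the peroxiredoxin of the endoplasmic reticulum, at 1.67 at 12 h and 0.65 at 6 h, the mitochondrial Prdx3 at 1.01 and 0.87, and Ccs, the copper chaperone of Sod1, at 0.92 and 0.59. The probe SD of Ccs was 0.54 at 12 h and 0.69 at 6 h. The lower gene, Sesn1, a stress-inducible sestrin picked after its values were known, stood at -1.24 at 12 h and 0.03 at 6 h. Among 6 other glutathione peroxidases, 5 were at least 1.5-fold higher at 12 h and 3 at 6 h, with medians of 1.48 and 0.665. Without centring 4 were higher at 12 h and 1 at 6 h, with medians of 1 and 0.34. Gpx4, which reduces lipid peroxides, stood at 2.06 at 12 h (probe SD 1.26, 6 probes) and 0.89 at 6 h (probe SD 0.28). Gpx8, an enzyme of the endoplasmic reticulum, stood at 1.57 and 0.77, and Gpx6 at 0.62 and 0.94 on 1 probe. Gpx7, picked after its values were known, was among the higher genes at 12 h, at 1.62 on 1 probe, and stood at 0.54 at 6 h. Gpx3, the secreted plasma enzyme, picked after its values were known, stood at 1.39 at 12 h (probe SD 0.19, 5 probes) and 0.17 at 6 h (probe SD 0.24).

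In the thioredoxin and glutaredoxin system, 13 of 17 genes were at least 1.5-fold higher at 12 h and 12 at 6 h, and none was lower at either time. The medians were 1.01 at 12 h and 0.70 at 6 h. Without centring 7 were higher at 12 h and 5 at 6 h, with medians of 0.53 and 0.38. Txnrd1, the cytosolic reductase that recharges Txn1, stood at 1.67 at 12 h and 2.03 at 6 h on 1 probe. Txnip, which binds and inhibits thioredoxin, stood at 1.33 (probe SD 0.28, 3 probes) and 1.47 (probe SD 0.26). Glrx5, a mitochondrial glutaredoxin of iron-sulfur cluster assembly, stood at 1.61 and 1.14. Txnl4a, at 1.38 and 0.93, has a thioredoxin fold but is a component of the spliceosome.

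Glutathione supply was mixed. Of 11 genes of glutathione synthesis, reduction and NADPH supply, 2 were at least 1.5-fold higher and 2 lower at 12 h, and 6 were higher and 1 lower at 6 h. The medians were 0.32 at 12 h and 0.66 at 6 h, and 3 of the 11 (Gss, Pgd and Nnt) read higher at 12 h than at 6 h. Without centring the medians were -0.16 at 12 h and 0.33 at 6 h, and 3 genes were higher and 2 lower at 6 h. The higher genes at both times were Gss, glutathione synthetase, at 1.78 at 12 h and 0.95 at 6 h, and Pgd, which makes NADPH in the pentose phosphate pathway, at 1.95 and 1.28. Nnt, the mitochondrial transhydrogenase, was lower, at -0.71 and -1.04 on 1 probe. The subunits of glutamate-cysteine ligase, which starts glutathione synthesis, and glutathione reductase were chosen after their values were seen. Gclc stood at 0.53 at 12 h and 1.42 at 6 h on 1 probe, Gclm at 0.32 and 0.88 (probe SD 0.12 at 12 h and 0.85 at 6 h), and Gsr at -0.62 and -0.29 on 1 probe.

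Of the other glutathione transferases, 11 of 17 were at least 1.5-fold higher and 1 lower at 12 h, and 5 of 16 were higher and 2 lower at 6 h. Gsto2, at -0.61 at 12 h and -0.755 at 6 h on 1 probe, was lower at both times, and Gstm7 at 6 h (-0.69, 1 probe); both were picked after their values were known. The medians of these transferases were 1.20 at 12 h and 0.49 at 6 h; without centring these were 0.72 and 0.16, with 9 genes higher at 12 h and 2 at 6 h. All 16 with both values read higher at 12 h than at 6 h. Gstp1, the pi-class enzyme, was the highest at 12 h, at 2.73 (probe SD 0.07, 2 probes), and stood at 2.12 at 6 h (probe SD 0.37); its near-identical copy Gstp2 cannot be told apart by hybridisation. The alpha-class genes Gsta3 and Gsta1, which also resemble each other, stood at 2.45 and 2.24 at 12 h and at 2.21 and 0.86 at 6 h, each on 1 probe. Gstm5 stood at 1.34 at 12 h (probe SD 0.15, 3 probes) and 0.82 at 6 h. The fifth higher gene at 6 h, Gsto1, picked after its values were known, stood at 1.27 at 12 h and 0.71 at 6 h (5 probes).

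The list of superoxide and peroxide sources holds enzymes, oxidase subunits, and Rac1 and Rac2. Its medians lay near those of all genes, at -0.10 at 12 h and -0.21 at 6 h over 14 genes. At 12 h 4 were at least 1.5-fold higher (Loxl2, Cyba, Noxo1 and Dao) and 2 lower (Xdh and Cybb), and at 6 h 2 were higher (Loxl2 and Cyba) and 3 lower (Ncf4, Cybb and Nos2); those without a value below were picked after their values were known. Without centring 2 were higher and 7 lower at 12 h, and 1 was higher and 7 lower at 6 h, with medians of -0.58 and -0.53. The subunits of the phagocyte NADPH oxidase differed in sign. Cyba, the p22phox subunit, stood at 1.92 at 12 h (probe SD 0.01, 2 probes) and 0.83 at 6 h. The catalytic subunit Cybb stood at -1.07 at 12 h (probe SD 0.42, 3 probes) and -2.0005 at 6 h (probe SD 0.72, fewer probes). Ncf4, another subunit, picked after its values were known, stood at -0.405 at 12 h and -2.065 at 6 h on 1 probe. Loxl2, a matrix-crosslinking oxidase that releases peroxide, stood at 2.50 at 12 h and 1.11 at 6 h on 1 probe. The methionine sulfoxide reductases, which repair oxidised methionine, also differed: Msrb1 stood at 1.93 at 12 h (probe SD 0.11, 3 probes) and 1.10 at 6 h, and Msrb3 at -1.23 (probe SD 0.21, 3 probes) and -0.48. The third gene of that list, Msra, picked after its values were known, stood at -0.30 at 12 h and 0.10 at 6 h.

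Genes of the NRF2 pathway outside these groups had medians of 0.33 at 12 h and 0.32 at 6 h over 17 genes, with 7 at least 1.5-fold higher at each time. At 12 h 3 were lower, Bach1, Abcc1 and Mafg, and at 6 h Abcc1 was, all picked after their values were known. Without centring both medians turned negative, to -0.15 at 12 h and -0.01 at 6 h, and 4 genes were lower at 6 h. Of those higher at both times, the largest mean values were those of Hmox1 (2.78 at 12 h and 4.01 at 6 h), the ferritin genes Ftl1 (2.24 and 1.08) and Fth1 (2.18 and 1.45), and the pentose phosphate enzyme Tkt, at 1.97 and 1.17 (probe SD 1.504 and 1.409, 9 probes). Nqo1, a quinone reductase often used to read NRF2 activity, was picked after its values were known and stood at 0.08 at 12 h (probe SD 0.03, 2 probes) and -0.11 at 6 h (probe SD 0.03).

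**Figure D3:**
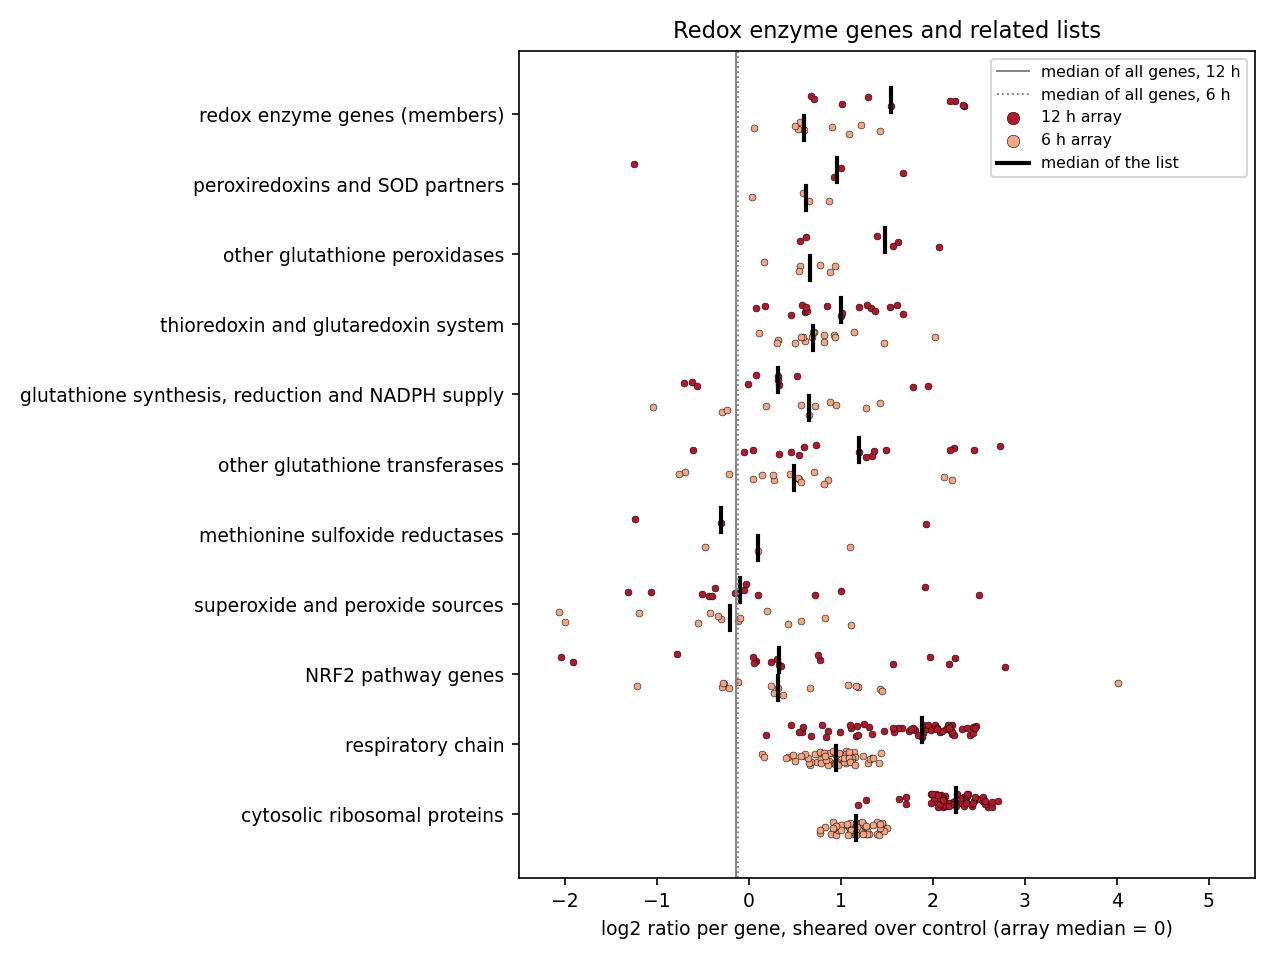
Log2 ratio per gene (horizontal axis) for the 9 redox enzyme genes in the top row and 10 related lists below, with the 12 h array above the 6 h array in each row. Black bars are list medians and the vertical lines are the medians of all genes (-0.14 at 12 h and -0.11 at 6 h). The medians of the ribosomal proteins and the respiratory chain lie furthest to the right. The medians of the peroxidases, the transferases and the thioredoxin system also lie to the right of these lines. So do those of glutathione supply and the NRF2 pathway, while the medians of the sources of superoxide and peroxide lie near them.

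Several of these enzymes occur as a cytosolic and a mitochondrial form encoded by different genes, a comparison chosen after the values were seen. The cytosolic form had the higher value in 4 of 5 such pairs at 12 h and in 5 of 5 at 6 h. These counts depend on which pairs were taken. Other pairs, cytosolic gene first, ran the other way at 6 h. They were Idh1 (0.57) and Idh2 (0.66), Prdx2 (0.56) and Prdx3 (0.87), and Glrx3 (0.57) and Glrx5 (1.14). Of these, only Glrx3 (1.02) and Glrx5 (1.61) did so at 12 h. The gap between Sod1 and Sod2 was 1.33 at 12 h and 0.495 at 6 h, and the lowest Sod1 probe at 12 h (1.74) lay above the highest Sod2 probe (1.33), whereas at 6 h the probes overlapped. Txn1 stood above Txn2 (1.54 at 12 h and 0.62 at 6 h, 6 probes) by 0.79 at 12 h and 0.81 at 6 h, and no probes overlapped at either time. Prdx1 stood above Prdx3 by 1.24 at 12 h and 0.355 at 6 h, and their probes overlapped at both times. The highest Prdx3 probe read 2.13 at 12 h and 1.18 at 6 h, above the lowest Prdx1 probe (1.94 and 1.05). Txnrd1, on 1 probe, stood above Txnrd2 (0.18 at 12 h and 0.315 at 6 h, 3 probes) by 1.49 at 12 h and 1.71 at 6 h. The probe SD of Txnrd2 was 0.28 at 12 h and 1.09 at 6 h, where 1 probe read -1.568. For the glutaredoxins Glrx and Glrx2 the gap was -0.16 at 12 h and 0.02 at 6 h. Each pair compares different genes on 1 array per time, with no test.

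**Figure D4:**
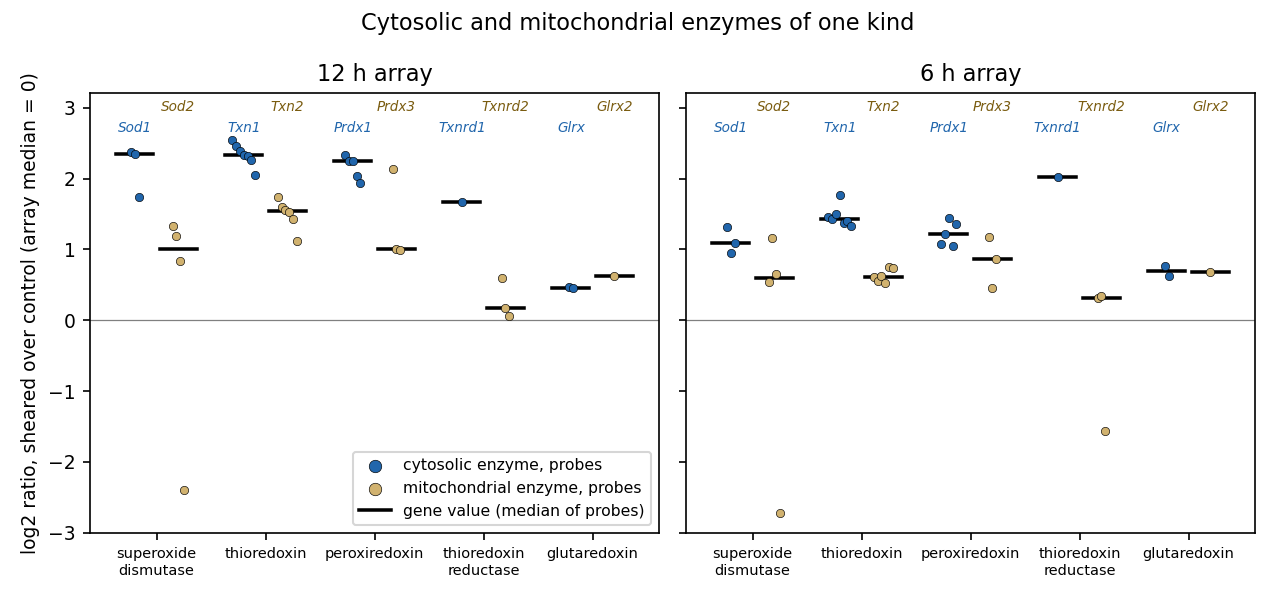
Log2 ratio of each probe (vertical axis, array median at 0) for 5 cytosolic enzymes (blue, left) and their mitochondrial counterparts (tan, right) on the 12 h array (left panel) and the 6 h array (right panel). Black bars are gene values. The probes of Txn1 and Txn2 do not overlap at either time, and Glrx and Glrx2 differ by -0.16 at 12 h and 0.02 at 6 h.

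Marker medians of endothelium, epithelium, cartilage and bone, liver and adipocytes were negative at both times. Those of leukocytes and skeletal muscle were positive, and that of tendon changed sign between the times. Without centring, each of these medians was negative at 12 h. Median values were 0.46 at 12 h and 0.39 at 6 h for 5 leukocyte markers, -0.61 and -0.45 for 4 endothelial markers, -0.05 and 0.03 for 7 tendon markers, and -0.36 and -0.69 for 6 epithelial markers. They were 0.06 at 12 h and 0.23 at 6 h for 3 skeletal muscle markers, -0.73 and -1.88 for 2 cartilage and bone markers, -0.49 and -0.65 for 3 liver markers, and -0.85 for 2 adipocyte markers at 12 h and -0.86 for 1 at 6 h. The muscle medians turned to -0.41 at 12 h and -0.10 at 6 h without centring, the leukocyte median to -0.02 at 12 h without centring, and the tendon median to -0.29 at 6 h without centring, -0.02 at 6 h with print blocks centred and 0.16 at 12 h with the mean of probes. Over genes with 2 or more probes, the leukocyte median turned to -1.05 at 12 h and the muscle median to -0.27 at 6 h. The part of any change in cell makeup in the values of the redox enzymes was not tested.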

How the data were processed

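The authors deposited a log ratio per spot for 2 two-colour arrays, taken here as log2; their normalization, background correction, spot filter and scanner are not given in the sources used here. Of 42624 spots, 41717 had a value at 12 h and 39776 at 6 h. The median of all spots was subtracted on each array. Symbols came from GEO's platform annotation, updated by gene ID through the RefSeq table of GRCm38.p6: 21701 spots had 1 symbol, 1124 several and 19799 none. Gene values are medians over probes with 1 symbol. The depth is unknown, because no intensities were used.

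Counts used 1.5-fold and 2-fold, beside the share of all genes. The redox genes and the lists were chosen with earlier results of these data known. All 10 listed genes are named. From each related list the text names up to 4 genes at least 1.5-fold from the median in 1 direction on both arrays (where fewer than 2 were, the 2 largest), and for ribosomal, respiratory and marker lists only their medians and counts, with Hba-a1 chosen after its values were seen. The median and count were tested on simulated data. Alternatives were no centring, the mean of probes, 2 or more probes, probes with several symbols, genes on both arrays, equal deviations, print blocks of 900 spots, thresholds of 2-fold and 3-fold, the lowest and highest probe and a turned sign. Python 3.11.15 with pandas 2.3.3 was used.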

Additional observations from a re-analysis of the deposited data

Results flagged for a closer look

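Among the redox enzymes and all genes of the related and marker lists, only the endothelial marker Kdr stood past 1.5-fold on opposite sides at the 2 times, at -0.65 at 12 h and 1.76 at 6 h. Its 2 probes had an SD of 0.57 at 12 h and 2.62 at 6 h, and the difference was not tested.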

How the results depend on the processing

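No paired analysis was possible because each time has 1 array. The count of redox enzymes at least 1.5-fold higher was 9 at 12 h; it became 4 (Sod1, Txn1, Prdx1 and Prdx2) at 3-fold, 5 on each gene's lowest probe and 0 with the sign turned, and lay between 6 and 9 under the other settings. At 6 h it was 5, and it became 3 without centring, 3 at 2-fold, 0 at 3-fold and 0 with the sign turned; it ran between 4 and 7 under the other settings. The median became 1.07 at 12 h and 0.27 at 6 h without centring, which lowers every value by the array median, and 0.86 at 6 h with print blocks centred, whose cause was not tested. On each gene's lowest probe the median at 12 h was 1.223, and on the highest probe the median at 6 h was 0.956; both settings were added for the medians and counts after seeing the data. The gap between 12 h and 6 h ran between 0.54 with equal deviations and 0.80 as reported, apart from the turned sign. Of 158 recomputed values of single redox enzymes, sign turned apart, 7 changed sign. Of these, 3 had been past 1.5-fold: Sod2 at 6 h with the mean of probes (-0.0945), and Sod2 on its lowest probe at 12 h (-2.403) and at 6 h (-2.727). The other 4 had been within it: Sod3 at 6 h without centring (-0.264), with print blocks centred (-0.0305) and on its lowest probe (-0.229), and Gstm1 at 6 h on its lowest probe (-0.008). If the ratio is control over sheared, the medians are -1.55 at 12 h and -0.595 at 6 h and the gap -0.80. The genes then stand, at 12 h, at -2.34 for Sod1, -1.01 for Sod2, -0.68 for Sod3, -0.71 for Cat, -1.55 for Gpx1, -2.25 for Prdx1, -2.19 for Prdx2, -2.33 for Txn1 and -1.30 for Gstm1, and at 6 h at -1.09 for Sod1, -0.595 for Sod2, -0.90 for Gpx1, -1.22 for Prdx1 and -1.43 for Txn1. The list medians at 12 h are then -0.96 for peroxiredoxins and dismutase partners, -1.48 for other glutathione peroxidases, -1.01 for the thioredoxin system, -1.20 for other transferases, -1.89 for the respiratory chain, -2.25 for ribosomal proteins, 0.61 for endothelium, 0.73 for cartilage and bone and 0.85 for adipocytes. At 6 h they are -0.62, -0.665, -0.70, -0.66 for glutathione supply, -0.94 for the respiratory chain, -1.17 for ribosomal proteins, 1.88 for cartilage and bone, 0.86 for adipocytes, 0.65 for liver and 0.69 for epithelium. Spot brightness was not available here, so signal over background could not be weighed.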
